A study of Homo sapiens with 6 samples.

Results

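The transforming growth factor-beta (TGF-β), bone morphogenetic protein (BMP) and activin pathway was followed through 45 genes in 21NT cells that over-expressed TBX3. The 45 genes were chosen by symbol, as a list drawn up with earlier results of these data known, and all 45 were found among the 20824 genes of the deposited RNA-Seq table. They comprise 9 ligands, 6 genes of ligand latency and matrix, 11 receptors and co-receptors, 3 secreted antagonists, 8 SMADs, 4 intracellular brakes and feedback genes, and 4 ID genes. 21NT is an established breast cancer cell line used as a model of early, pre-invasive disease. The 3 stable lines compared were 21NT + EV (empty pcDNA3.1 vector), 21NT + TBX3iso1 and 21NT + TBX3iso2, each sequenced in 2 libraries. TBX3 is a T-box transcription factor whose isoform 2 carries extra residues in the DNA-binding domain. Each line was a pool of transfected clones resistant to the antibiotic G418, and all lines, EV included, were kept in G418 with serum, insulin, EGF and hydrocortisone. The sources do not say whether the 2 libraries of a line came from separate cultures. The p-values therefore cover only the spread between those libraries, which may be technical. Each construct was carried by its own pool, so effects of TBX3 or of an isoform and other differences between pools cannot be told apart.

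Ligands of this superfamily are secreted as precursors, and TGF-β itself is held latent in the matrix by latent TGF-β binding proteins (LTBPs) until integrins or proteases release it. An active ligand joins type I and type II receptor kinases, which phosphorylate SMAD2 and SMAD3 (TGF-β and activin) or SMAD1, SMAD5 and SMAD9 (BMP), and these enter the nucleus with SMAD4. Noggin and follistatin trap ligands outside the cell, while SMAD6, SMAD7, SMURF ligases, SKIL and PMEPA1 restrain the signal inside it. In breast epithelium TGF-β is known both for arresting growth and, in tumour cells, for promoting epithelial-mesenchymal transition (EMT).

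Library depth ranged from 43176600 to 54512400 alignments, so 1 alignment on a 1-kb transcript was worth between 0.0183 and 0.0232 RPKM (reads per kilobase of transcript, scaled to the alignments of the library). TBX3 itself stood at 8.52 and 8.24 RPKM in the EV libraries, 13.1 and 11.4 in TBX3iso1 and 17.5 and 15.5 in TBX3iso2. Its values were above EV in every TBX3 library (log2 fold change 0.54, under 1.5-fold, and 0.97), but the table does not separate the isoforms. Of 12 mammary epithelial markers, 10 averaged at least 0.5 RPKM, while KRT14 and PGR did not. Their sum ranged from 3238 to 3353 RPKM with EV, 2668 to 2921 with TBX3iso1 and 3022 to 3389 with TBX3iso2. Most markers of other cell types were near 0: 1 of 8 fibroblast markers (COL1A1), 1 of 5 endothelial markers (PECAM1) and 2 of 5 leukocyte markers (CD14 and CD68) reached 0.5 RPKM, and the pan-leukocyte gene PTPRC reached at most 0.01 RPKM. The summed endothelial markers ranged from 7.41 to 7.77 RPKM with EV, 1.42 to 1.49 with TBX3iso1 and 1.32 to 1.49 with TBX3iso2, and the summed fibroblast markers from 4.73 to 5.01, 8.19 to 8.84 and 7.20 to 7.62. The summed leukocyte markers, mostly CD68, ranged from 52.7 to 54.9 RPKM with EV, 36.7 to 36.9 with TBX3iso1 and 36.3 to 36.7 with TBX3iso2. Their part in the results was not tested, and in bulk RNA fewer cells of a type and less RNA per cell cannot be told apart.

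To show the regulatory DNA of genes that moved with both isoforms, the 250 bases before the start of transcription (RefSeq, GRCh38.p14) were searched on both strands for CAGACA, the core of the SMAD-binding CAGA box. Of the 45 genes, 41 had such windows (76 in all), and 14 of the 76 (18.4%) held the motif, beside 13.6% of all 35116 windows. The T-box half-site GGTGTGA stood in 2 of the 76 windows (2.63%), those of TGFBR1 and SMURF2, beside 2.76% of all windows. The paper searched the regions bound in its ChIP arrays instead. It lists PMEPA1 among genes altered in the same RNA-Seq, bound by both isoforms at overlapping sites and holding a T-box element. The GC-rich SMAD motif GGCGCC stood in 18 (23.7%, beside 16.4%) and the E-box CACCTG in 10 (13.2%, beside 17.5%). A match is a description of letters, not of a bound site. The windows of 3 genes are shown because their genes were called in the same direction with both isoforms and hold CAGACA (capitals, as is GGCGCC where present). The motif lies 53, 74 and 115 bases before the start in TGFB2 (chr1:218345086-218345335, plus strand), ACVR1 (chr2:157876331-157876580, minus strand, 1 of its starts) and PMEPA1 (chr20:57710578-57710827, minus strand, 1 of its starts).
TGFB2: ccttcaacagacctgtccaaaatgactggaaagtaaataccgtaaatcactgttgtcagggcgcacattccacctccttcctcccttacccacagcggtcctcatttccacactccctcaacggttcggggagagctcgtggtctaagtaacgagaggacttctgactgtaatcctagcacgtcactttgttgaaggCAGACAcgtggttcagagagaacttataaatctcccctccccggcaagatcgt
ACVR1: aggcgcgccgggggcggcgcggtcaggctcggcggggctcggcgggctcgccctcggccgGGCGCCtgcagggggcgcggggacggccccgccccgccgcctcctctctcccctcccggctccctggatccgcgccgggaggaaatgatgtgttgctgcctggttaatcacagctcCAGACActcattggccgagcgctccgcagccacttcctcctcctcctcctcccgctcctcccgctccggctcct
PMEPA1: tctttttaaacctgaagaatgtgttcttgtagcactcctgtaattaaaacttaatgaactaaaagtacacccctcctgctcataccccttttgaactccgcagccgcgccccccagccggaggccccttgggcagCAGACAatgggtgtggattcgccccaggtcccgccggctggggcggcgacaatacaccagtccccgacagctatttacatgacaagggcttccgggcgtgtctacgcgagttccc

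**Figure D1:**
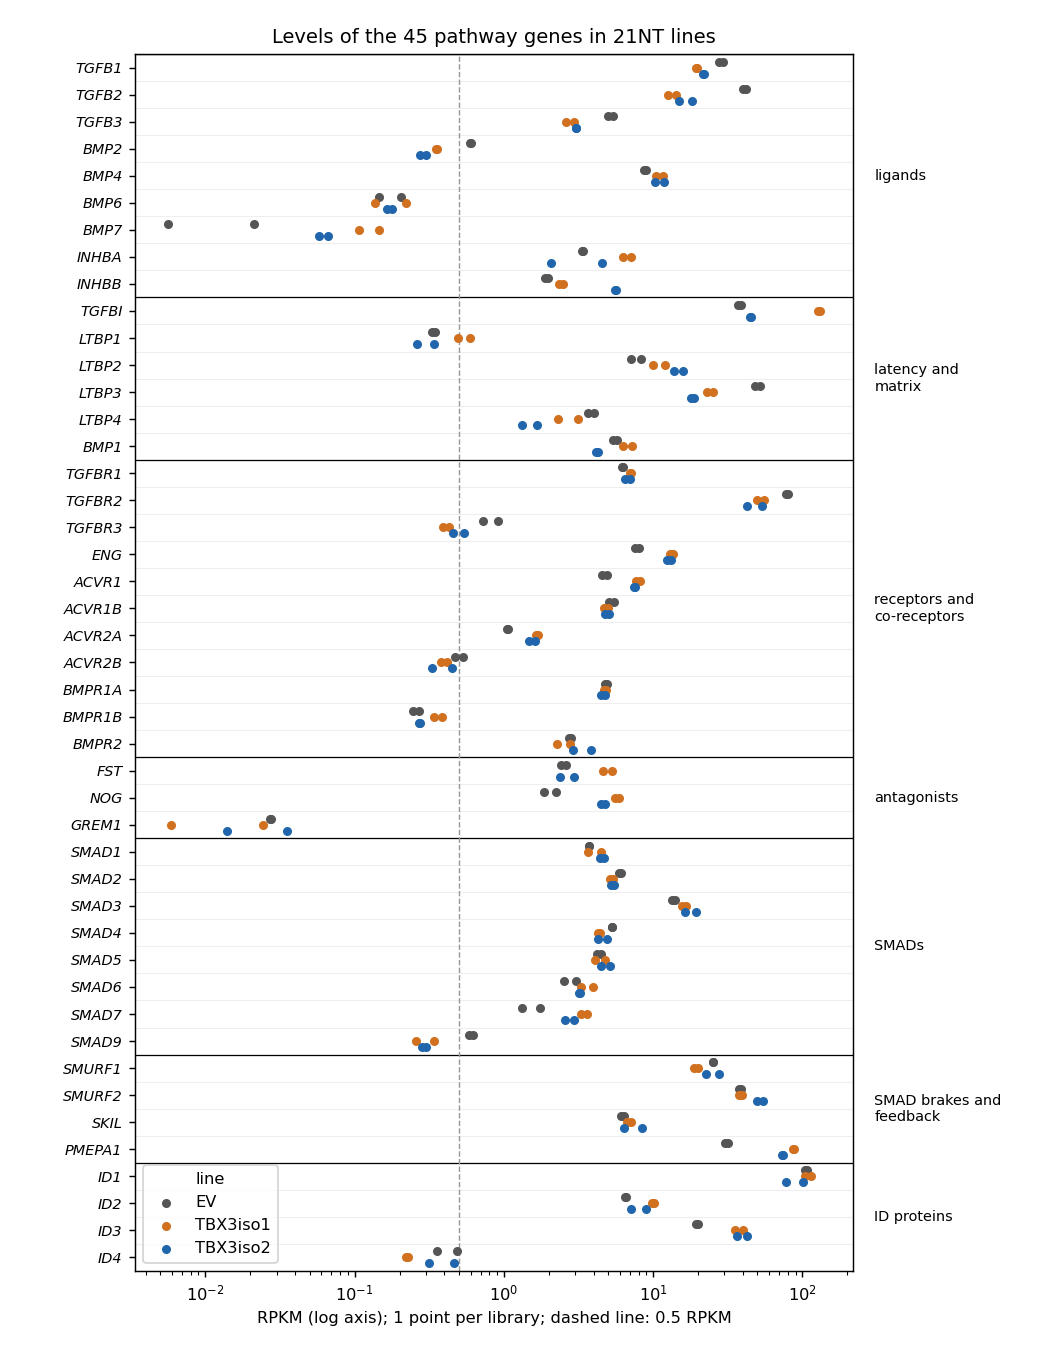
RPKM (log axis) of the 45 pathway genes, grouped by role, with 1 point for each of the 6 libraries coloured by line. ID1, TGFBR2, TGFBI, PMEPA1 and LTBP3 were among the most abundant members, and 9 genes lay under the mean of 0.5 RPKM needed for a test.

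The pathway was well expressed in 21NT + EV cells. TGFBR2, the type II TGF-β receptor, at 79.8 and 77.2 RPKM, stood at the 96.5th percentile of all genes, and ID1, a BMP-responsive inhibitor of basic helix-loop-helix factors, at 104 and 108 RPKM, at the 97.5th. The TGF-β ligand TGFB2 (39.9 and 41.7 RPKM) exceeded TGFB1 (29.5 and 27.7) and TGFB3 (5.41 and 5.02), and among BMP ligands BMP4 (8.72 and 9.01) led. In these per-length units the plot of levels by gene shows that receptors other than TGFBR2 lay mostly between 1 and 10 RPKM. In all, 9 members averaged under 0.5 RPKM and were not tested: BMP2, BMP6, BMP7, LTBP1, ACVR2B, BMPR1B, GREM1, SMAD9 and ID4.

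Against EV, TBX3iso1 gave 11 members called higher and 4 called lower of 36 tested (limma on log2(RPKM + 0.1), Benjamini-Hochberg adjusted p under 0.05 and a change over 1.5-fold). Those calls are 41.7% of the tested members, where 21.5% of all 12805 tested genes were called. By direction, 30.6% of members were higher beside 7.46% of all genes, and 11.1% were lower beside 14.1%. With TBX3iso2, 8 members were higher (22.2%, beside 8.94% of all genes) and 6 lower (16.7%, beside 12.3%), together 38.9% of the tested members beside 21.2%. The members' median log2 fold change was 0.16 with TBX3iso1, beside −0.05 over all genes, and 0.18 with TBX3iso2, beside −0.00, the latter 0.05 without TBX3iso2 replicate 1 and also 0.05 with no filter. Both comparisons use the same EV libraries. Libraries of the 2 lines did not overlap for 30 of 36 members with TBX3iso1 (19 above EV, 11 below), where 34.3% and 44.1% of all genes lay wholly above or below EV, and for 32 with TBX3iso2 (20 above, 12 below), where the shares were 37.5% and 37.2%.

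**Figure D2:**
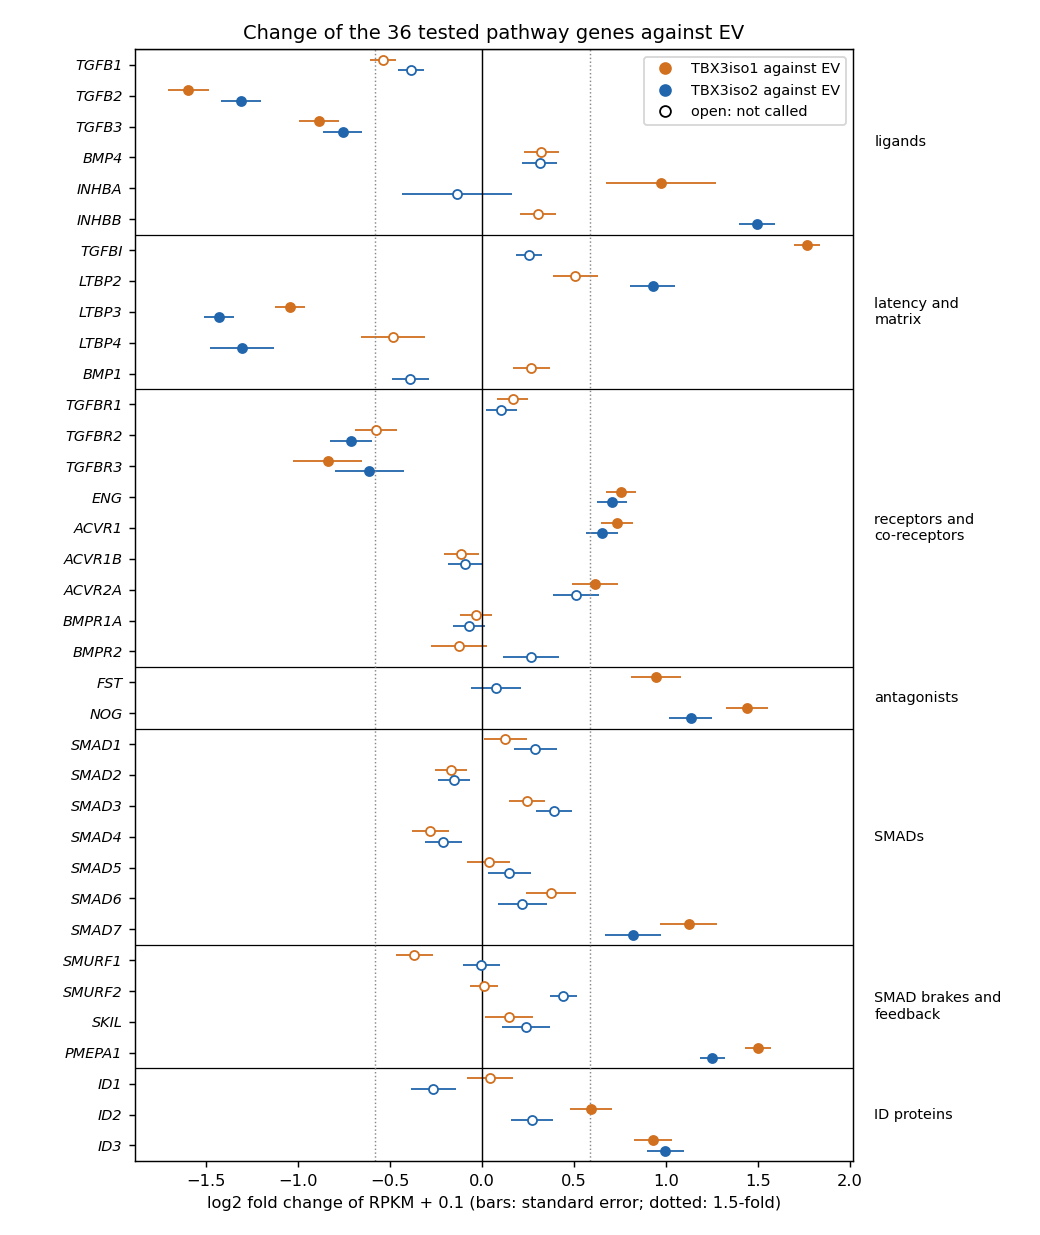
Log2 fold change (RPKM + 0.1) of the 36 tested members against EV, by role, for TBX3iso1 (orange) and TBX3iso2 (blue), with bars of 1 standard error, filled points for called members and dotted lines at 1.5-fold. TGFB2, TGFB3, LTBP3 and TGFBR3 are called lower with each isoform, while PMEPA1, NOG, SMAD7, ENG, ACVR1 and ID3 are called higher with each.

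Among the ligands, the TGF-βs were lower and the activin subunits moved with one isoform or the other. TGFB2 (chromosome 1, 218518678 to 218617961, GRCh37) read 39.9 and 41.7 RPKM with EV, 14.3 and 12.6 with TBX3iso1, and 18.1 and 14.8 with TBX3iso2. Every TBX3 library was under both EV libraries. It fell by 67.1% with TBX3iso1 (log2 fold change −1.60, SE 0.111, limma adjusted p = 4.7e-05) and by 59.7% with TBX3iso2 (−1.31, adjusted p = 0.000115). TGFB3, the least abundant of these ligands, measured 5.41 and 5.02 RPKM with EV, 2.97 and 2.59 with TBX3iso1, and 3.03 and 3.04 with TBX3iso2. The lines did not overlap EV, and TGFB3 fell by 0.89 and 0.76 on the log2 scale (adjusted p = 0.000592 and 0.00118). TGFB1, the most studied of the 3, went from 29.5 and 27.7 RPKM with EV to 19.8 and 19.5 with TBX3iso1 and 21.67 and 21.98 with TBX3iso2. These values are below EV in each library, but its log2 fold changes of −0.54 and −0.39 (adjusted p = 0.0008 and 0.00345) were under the 1.5-fold limit.

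Summed over the 3 genes, TGF-β ligand RNA was 74.6 ± 0.231 RPKM with EV (mean ± SD, n = 2), 35.8 ± 1.72 with TBX3iso1 and 41.3 ± 2.10 with TBX3iso2. The share of the sum taken by TGFB2 was 53.3% and 56.1% with EV, 38.5% and 36.3% with TBX3iso1, and 42.3% and 37.2% with TBX3iso2. TGFB1 took 39.4% and 37.2% with EV and at least 50.6% in each TBX3 library. Thus the most abundant TGF-β transcript was TGFB2 in the EV libraries and TGFB1 in the 4 others.

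INHBB, which encodes the subunit of activin B, gave 1.96 and 1.90 RPKM with EV, 2.34 and 2.47 with TBX3iso1, and 5.68 and 5.56 with TBX3iso2. All TBX3 libraries were above EV, and those of TBX3iso2 were the highest. INHBB rose by 1.495 on the log2 scale with TBX3iso2 (limma adjusted p = 4.16e-05), and its 0.30 with TBX3iso1 (adjusted p = 0.0402) was under 1.5-fold. INHBA, the subunit of activin A, gave 3.34 and 3.40 RPKM with EV, 7.12 and 6.32 with TBX3iso1, and 4.53 and 2.06 with TBX3iso2. The TBX3iso1 libraries were highest, while the TBX3iso2 pair lay on either side of EV. INHBA rose by 0.97 with TBX3iso1 (SE 0.299, adjusted p = 0.0322) and was not called with TBX3iso2 (−0.13, adjusted p = 0.738). The first call was lost without any 1 of the EV or TBX3iso1 libraries (adjusted p from 0.0556 to 0.134), with no filter (0.119), with no trend (0.0523) and without moderation (0.212), and without TBX3iso2 replicate 1 INHBA was called lower with TBX3iso2 (−0.69, adjusted p = 0.00222).

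BMP4, an epithelial BMP ligand, was 8.72 and 9.01 RPKM with EV, 11.7 and 10.52 with TBX3iso1 and 11.8 and 10.3 with TBX3iso2. All 4 TBX3 libraries were above EV by less than 1.5-fold (log2 fold change 0.32 and 0.31). BMP2, under the limit for a test, had 0.593 and 0.607 RPKM with EV, 0.356 and 0.350 with TBX3iso1 and 0.300 and 0.275 with TBX3iso2. BMP6 lay between 0.138 and 0.221 RPKM. BMP7 had 0.00561 and 0.0213 RPKM with EV, 0.146 and 0.106 with TBX3iso1 and 0.0664 and 0.0576 with TBX3iso2, so both EV values lay near the worth of 1 alignment on a 1-kb transcript or below it.

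**Figure D3:**
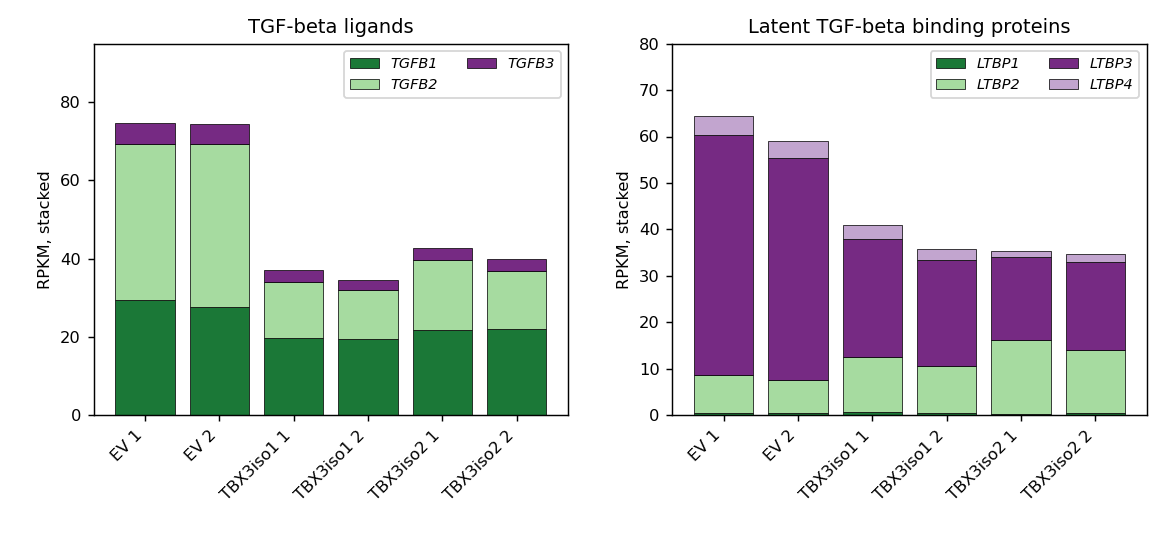
Stacked RPKM (linear axes from 0) of the TGF-β ligand genes (left) and the LTBP genes (right), with 1 bar for each of the 6 libraries and 1 colour for each gene. The ligand sum is 74.8 and 74.4 RPKM in the EV libraries and 34.6 to 42.8 in the TBX3 libraries, and the LTBP sum 64.3 and 59.1 with EV and 34.6 to 41.0 in the TBX3 libraries, where LTBP2 takes more of the bar.

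In the LTBP family, LTBP3 was lower with both isoforms, LTBP4 was lower and LTBP2 higher with TBX3iso2. LTBP3 (chromosome 11, 65306030 to 65326401), which tethers latent TGF-β, read 51.7 and 47.9 RPKM with EV, 25.3 and 22.9 with TBX3iso1, and 18.0 and 18.9 with TBX3iso2. The 3 lines did not overlap, and LTBP3 fell by 1.04 with TBX3iso1 (limma adjusted p = 7.97e-05) and by 1.43 with TBX3iso2 (2.03e-05). LTBP2, a family member of elastic fibres that does not bind latent TGF-β, had 8.28 and 7.14 RPKM with EV, 11.98 and 10.04 with TBX3iso1, and 15.8 and 13.7 with TBX3iso2. Again no line overlapped another. LTBP2 rose by 0.93 with TBX3iso2 (adjusted p = 0.000797), while its 0.51 with TBX3iso1 (adjusted p = 0.0121) was under 1.5-fold, a limit it passed with median-ratio scaling (0.59), quantile normalization (0.61), without EV replicate 1 (0.61) and without TBX3iso1 replicate 2 (0.63). The ratio of LTBP3 to LTBP2 was 6.25 and 6.71 with EV, 2.11 and 2.28 with TBX3iso1, and 1.14 and 1.38 with TBX3iso2.

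LTBP4, another carrier of latent TGF-β, had 3.99 and 3.67 RPKM with EV, 3.16 and 2.31 with TBX3iso1, and 1.32 and 1.67 with TBX3iso2. Its TBX3iso2 libraries were below the other 4, and it fell by 1.31 with TBX3iso2 (limma adjusted p = 0.00084). With TBX3iso1 the difference of −0.49 was not called (adjusted p = 0.0531), but it was without TBX3iso1 replicate 1 (−0.70, adjusted p = 0.0165). LTBP1 was not tested, at 0.261 to 0.590 RPKM.

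TGFBI (chromosome 5, 135364677 to 135399507), a secreted matrix protein named for its induction by TGF-β, gave 38.8 and 36.9 RPKM with EV, 127 and 132 with TBX3iso1, and 44.8 and 45.5 with TBX3iso2. TBX3iso1 libraries stood far above the other 4. TGFBI rose by 1.77 with TBX3iso1 (SE 0.0706, limma adjusted p = 5.6e-06), and its 0.25 with TBX3iso2 (adjusted p = 0.0214) was under 1.5-fold. BMP1 is a procollagen protease and, despite its name, not a BMP ligand. It had 5.72 and 5.42 RPKM with EV, 7.24 and 6.25 with TBX3iso1, and 4.27 and 4.17 with TBX3iso2. TBX3iso1 libraries were above EV and TBX3iso2 libraries below it, and neither difference was called (0.27, adjusted p = 0.0631, and −0.39, adjusted p = 0.0157).

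Among receptors, the TGF-β-binding pair TGFBR2 and TGFBR3 was lower and 3 others were higher in at least 1 comparison. TGFBR2 (chromosome 3, 30648093 to 30735634) read 79.8 and 77.2 RPKM with EV, 55.3 and 49.9 with TBX3iso1, and 53.7 and 42.7 with TBX3iso2. All TBX3 libraries were below EV. It fell by 0.71 with TBX3iso2 (limma adjusted p = 0.00206), a call lost without TBX3iso2 replicate 2 (−0.55) and without moderation (adjusted p = 0.0588). With TBX3iso1 its −0.58 (adjusted p = 0.00533) was just under 1.5-fold and passed it with quantile normalization (−0.67), without EV replicate 2 (−0.60) and without TBX3iso1 replicate 1 (−0.65). TGFBR1, its type I partner, lay between 6.23 and 7.08 RPKM in all libraries and was not called (0.17 and 0.10, adjusted p = 0.147 and 0.353). The ratio of TGFBR2 to TGFBR1 was 12.8 and 12.3 with EV, 7.92 and 7.05 with TBX3iso1, and 7.64 and 6.63 with TBX3iso2.

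TGFBR3 (betaglycan), a co-receptor that presents TGF-β2, had 0.917 and 0.721 RPKM with EV, 0.432 and 0.389 with TBX3iso1, and 0.540 and 0.457 with TBX3iso2. The lines did not overlap EV, and TGFBR3 fell by 0.84 and 0.61 (limma adjusted p = 0.00888 and 0.0304). At this low level both calls were lost with 1 RPKM added (−0.36 and −0.28), without moderation (adjusted p = 0.0515 and 0.0821) and without EV replicate 1 (−0.69, adjusted p = 0.0788, and −0.46, adjusted p = 0.194). The TBX3iso2 call was also lost with no filter (adjusted p = 0.0572), with quantile normalization (−0.41), without EV replicate 2 (adjusted p = 0.0599) and without TBX3iso2 replicate 2 (0.118).

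Endoglin (ENG), a co-receptor best known from endothelium, gave 8.07 and 7.51 RPKM with EV, 13.5 and 12.9 with TBX3iso1, and 12.3 and 13.2 with TBX3iso2. Every TBX3 library was above EV, with rises of 0.76 and 0.70 (limma adjusted p = 0.00034 and 0.000447). The endothelial marker PECAM1, the 1 of 5 that reached 0.5 RPKM, was lower in those libraries (log2 fold change −2.56 and −2.41). The source of the ENG RNA was not tested. ACVR1, a type I receptor for BMPs, read 4.94 and 4.52 RPKM with EV, 8.13 and 7.73 with TBX3iso1, and 7.44 and 7.51 with TBX3iso2. It rose by 0.73 and 0.65 (adjusted p = 0.000529 and 0.000886) with no overlap of EV, the latter 0.57 with 1 RPKM added and then under the fold limit. ACVR2A, a type II receptor for activins, had 1.06 and 1.05 RPKM with EV, 1.70 and 1.64 with TBX3iso1, and 1.47 and 1.62 with TBX3iso2. All TBX3 libraries were above EV, and ACVR2A rose by 0.61 with TBX3iso1 (adjusted p = 0.00604; 0.38 and under the fold limit with 1 RPKM added), while 0.51 with TBX3iso2 (adjusted p = 0.0131) was under the limit and passed it with quantile normalization (0.69).

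The other tested receptors were not called. The activin type I receptor ACVR1B lay between 4.68 and 5.46 RPKM, with log2 fold changes of −0.11 and −0.09, and the BMP type I receptor BMPR1A between 4.50 and 4.94 RPKM, with −0.03 and −0.07. BMPR2, the BMP type II receptor, had 2.80 and 2.71 RPKM with EV, 2.78 and 2.28 with TBX3iso1, and 3.81 and 2.92 with TBX3iso2 (−0.13 and 0.27), and its TBX3iso1 libraries overlapped EV. ACVR2B (0.329 to 0.531 RPKM) and BMPR1B (0.247 to 0.386 RPKM) were not tested.

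Of the secreted antagonists, noggin was higher with both isoforms and follistatin with TBX3iso1. NOG, a BMP trap, gave 2.23 and 1.86 RPKM with EV, 5.55 and 5.89 with TBX3iso1, and 4.47 and 4.73 with TBX3iso2. Every TBX3 library was above EV. NOG rose by 1.44 (SE 0.115, limma adjusted p = 8.42e-05) and by 1.13 (adjusted p = 0.000248). FST, the activin trap follistatin, had 2.42 and 2.62 RPKM with EV, 4.59 and 5.32 with TBX3iso1, and 2.97 and 2.39 with TBX3iso2. Its TBX3iso1 libraries were above the other 4, with a rise of 0.94 (adjusted p = 0.00129), and the TBX3iso2 libraries overlapped EV (0.08, adjusted p = 0.671). Gremlin (GREM1), another BMP trap, lay between 0.00592 and 0.0353 RPKM.

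Of the 7 tested SMADs only SMAD7 was called. Against EV that is 14.3% with each isoform, beside 21.5% (TBX3iso1) and 21.2% (TBX3iso2) of all genes. SMAD7, an inhibitory SMAD that blocks receptors, read 1.75 and 1.32 RPKM with EV, 3.58 and 3.29 with TBX3iso1, and 2.97 and 2.59 with TBX3iso2. Its TBX3 libraries were all above EV, and it rose by 1.12 with TBX3iso1 (limma adjusted p = 0.000977) and by 0.82 with TBX3iso2 (adjusted p = 0.00382), the latter call lost with 1 RPKM added (0.58) and without moderation (adjusted p = 0.0631). SMAD3, a signal carrier of TGF-β, had 14.0 and 13.3 RPKM with EV, 16.7 and 15.7 with TBX3iso1, and 19.5 and 16.4 with TBX3iso2. Both lines were above EV, by log2 fold changes of 0.25 (adjusted p = 0.0749) and 0.39 (0.0145) that were under 1.5-fold. For SMAD1, SMAD2, SMAD4, SMAD5 and SMAD6 no comparison with EV was called, with log2 fold changes from −0.28 (SMAD4 with TBX3iso1) to 0.37 (SMAD6 with TBX3iso1). SMAD9 was not tested, at 0.586 and 0.625 RPKM with EV and 0.257 to 0.342 in the TBX3 libraries.

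PMEPA1 (chromosome 20, 56223448 to 56286592), a feedback gene whose product sequesters receptor-activated SMADs, gave 31.6 and 30.1 RPKM with EV, 88.1 and 86.9 with TBX3iso1, and 73.1 and 74.2 with TBX3iso2. No TBX3 library came near EV, and the rises were 1.501 (SE 0.0689, limma adjusted p = 8.7e-06) and 1.25 (adjusted p = 1.76e-05). The ubiquitin ligases that remove SMADs and receptors were not called. SMURF1 had 25.11 and 24.99 RPKM with EV, 19.99 and 18.78 with TBX3iso1, and 27.5 and 22.6 with TBX3iso2, while SMURF2 had 38.7 and 37.6, 39.2 and 37.6, and 54.1 and 49.7. SMURF1 was lower than EV in both TBX3iso1 libraries (−0.37, adjusted p = 0.0198) and SMURF2 higher in both TBX3iso2 libraries (0.44, adjusted p = 0.00253), each under 1.5-fold. The co-repressor SKIL was not called (0.15 and 0.24).

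The ID genes, which encode inhibitors of helix-loop-helix factors and are classical BMP targets, did not move as 1 group. ID3 read 20.1 and 19.3 RPKM with EV, 35.2 and 40.2 with TBX3iso1, and 36.3 and 42.8 with TBX3iso2. It rose by 0.93 and 1.00 (limma adjusted p = 0.000383 and 0.000265), every TBX3 library being above EV. ID2 had 6.51 and 6.58 RPKM with EV, 9.77 and 10.1 with TBX3iso1, and 7.06 and 8.90 with TBX3iso2. ID2 rose by 0.59 with TBX3iso1 (adjusted p = 0.00466), at the edge of the fold limit, and the call was lost with 1 RPKM added (0.53), without moderation (adjusted p = 0.0701) and without TBX3iso1 replicate 2 (0.57), while 0.27 with TBX3iso2 was not called (adjusted p = 0.0864). ID1 had 104 and 108 RPKM with EV, 104 and 115 with TBX3iso1, and 77.4 and 100 with TBX3iso2, with no call (0.05 and −0.26, adjusted p = 0.789 and 0.12). ID4 lay between 0.221 and 0.488 RPKM.

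Between the isoforms, 1 member was called higher with TBX3iso2 (INHBB) and 5 lower (TGFBI, INHBA, FST, LTBP4 and BMP1), 16.7% of the 36 tested members beside 6.29% of all genes. In the higher direction 3.47% of all genes were called, and in the lower direction 2.82%. Libraries of the isoforms did not overlap for 9 members above and 14 below, where 33.4% and 20.1% of all genes lay wholly above or below. INHBB was 1.19 higher with TBX3iso2 on the log2 scale (limma adjusted p = 0.000537), while TGFBI was 1.51 lower (a log2 fold change of −1.51, adjusted p = 5.31e-05) and FST 0.87 lower (−0.87, adjusted p = 0.00678, or 0.0985 without moderation). BMP1 differed by −0.66 (adjusted p = 0.0062), a call lost with 1 RPKM added (−0.57), without moderation (adjusted p = 0.0733) and without TBX3iso1 replicate 1 (−0.56).

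The last 2 calls between isoforms were lost under many alternatives. LTBP4 differed by −0.82 (limma adjusted p = 0.0206), with adjusted p = 0.0589 without EV replicate 1, 0.0579 without EV replicate 2 and 0.0858 without TBX3iso1 replicate 1, and it was under the fold limit with 1 RPKM added (−0.58). The adjusted p of LTBP4 was 0.083 with no filter, 0.0613 with only the 2 lines compared and 0.165 without moderation. INHBA differed by −1.11 (adjusted p = 0.0466). That call was lost without EV replicate 1 or 2, without TBX3iso1 replicate 1 or 2 (adjusted p from 0.0823 to 0.124 over these 4) and without TBX3iso2 replicate 2 (−0.56, adjusted p = 0.0184, under 1.5-fold). It was also lost with no filter (0.162), with only the 2 lines compared (0.103), with no trend (0.0737) and without moderation (0.274). None of the 9 receptors, 7 SMADs, 4 brakes and 3 ID genes tested was called between the isoforms by limma, where 6.29% of all genes were. SMURF2 (0.43, limma adjusted p = 0.00976) and SMURF1 (0.36, adjusted p = 0.0495) were higher in both TBX3iso2 libraries, each under 1.5-fold.

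**Figure D4:**
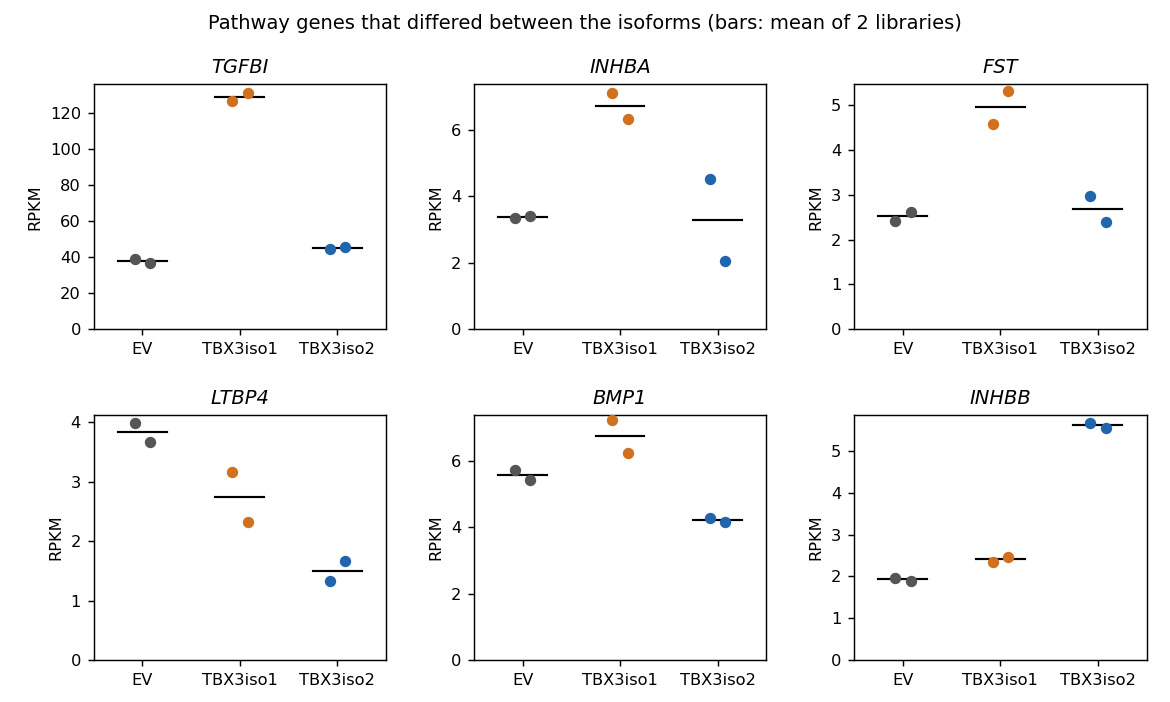
RPKM (linear axis from 0) of TGFBI, INHBA, FST, LTBP4, BMP1 and INHBB, the members called between TBX3iso1 and TBX3iso2, in the 6 libraries, with points for libraries and horizontal lines for the mean of each line's 2 libraries. INHBB alone is higher with TBX3iso2, and the 2 TBX3iso2 values of INHBA, 4.53 and 2.06 RPKM, lie on either side of EV.

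The other genes of the pathway were taken from lists of ligands, receptors, antagonists, activators, SMAD partners and textbook targets. Tests covered 76 of 121 such genes. The calls against EV came to 15 higher and 7 lower in TBX3iso1 cells, or 28.9% of those tested beside 21.5% of all genes, and to 15 higher and 14 lower in TBX3iso2 cells, or 38.2% beside 21.2%. In the list of latency and activation 5 of 9 tested genes were higher in TBX3iso1 cells and 4 of 9 in TBX3iso2 cells, 0 being lower in either, where 7.46% and 8.94% of all genes were called higher, and the medians were 0.64 and 0.36, beside −0.05 and −0.00 over all genes. ITGB6, the β6 subunit of the integrin that releases latent TGF-β, read 6.49 and 5.78 RPKM with EV, 31.1 and 27.9 with TBX3iso1, and 32.9 and 27.9 with TBX3iso2, a rise of 2.25 and 2.29 (limma adjusted p = 9.73e-06 and 1e-05). Its partner ITGAV rose by 1.02 and 0.77, neither of them called without moderation (adjusted p = 0.0726 and 0.11), the latter called neither without EV replicate 2 (adjusted p = 0.0626) nor without TBX3iso2 replicate 1 (0.52, under 1.5-fold). The membrane protease MMP14 rose by 0.96 and 0.73, and the convertase PCSK6 by 1.33 with TBX3iso1, with 0.36 in TBX3iso2 not called. Thrombospondin 1 (THBS1), named to complete the count, rose by 0.64 and 0.59, calls lost without moderation (adjusted p = 0.0821 and 0.0917), with quantile normalization (0.51 and 0.47), without EV replicate 2 (0.55 and 0.50) and without replicate 1 of the isoform compared (0.54 and 0.45).

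Textbook TGF-β targets gave 8 genes higher and 2 lower of 21 tested in TBX3iso1 cells (median 0.44, beside −0.05 over all genes), and in TBX3iso2 cells 9 higher and 3 lower (median 0.17, beside −0.00). Of all genes 7.46% were called higher and 14.1% lower with TBX3iso1, and 8.94% and 12.3% with TBX3iso2. PTHLH, a parathyroid hormone-related peptide, rose by 2.10 and 1.11 (the latter 0.44, under 1.5-fold, with 1 RPKM added, and adjusted p = 0.0539 without moderation), and the secreted ANGPTL4 by 1.95 and 1.69. IL11, a cytokine, read 2.32 and 1.89 RPKM with EV, 1.58 and 1.70 with TBX3iso1, and 8.51 and 6.44 with TBX3iso2. Its TBX3iso2 libraries were above the other 4, with a rise of 1.77 (limma adjusted p = 0.00015), while −0.34 with TBX3iso1 was not called (adjusted p = 0.119). The difference between the isoforms was 2.11 (adjusted p = 0.000356, or 0.0528 without moderation). The list also held genes that fell, SNAI1, an EMT transcription factor (−1.55 and −1.12), and CDKN2B, a cell-cycle inhibitor (−0.76 and −0.78), and with TBX3iso2 the collagen cross-linking enzyme LOX (−0.95, and −0.42 with TBX3iso1, not called), named after their values were seen. ITGB6 is in this list as well as in that of activation, and COL1A1 is also the fibroblast marker given above (0.77 and 0.70).

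**Figure D5:**
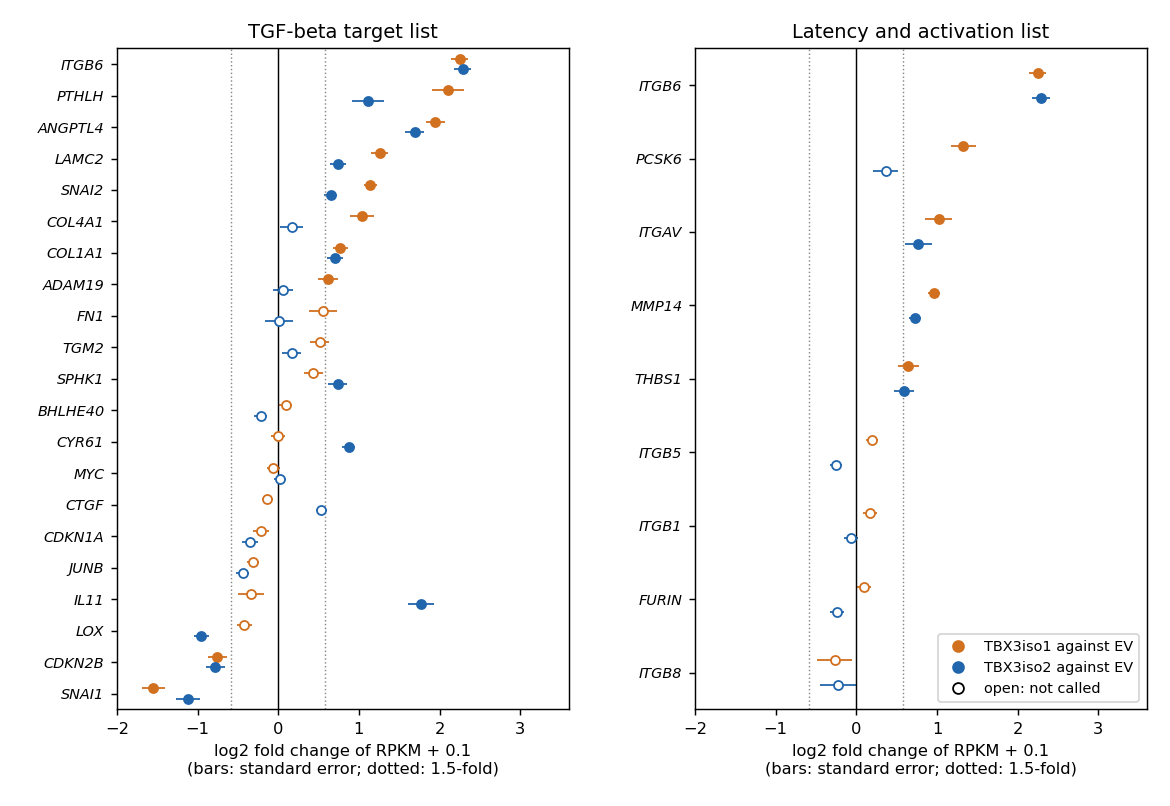
Log2 fold change (RPKM + 0.1) against EV of the tested genes in the lists of TGF-β targets (left) and of latency and activation (right), for TBX3iso1 (orange) and TBX3iso2 (blue), with bars of 1 standard error, filled points where called and dotted lines at 1.5-fold. ITGB6 at 2.25 and 2.29 lies farthest to the right, and SNAI1 at −1.55 and −1.12 farthest to the left.

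Textbook BMP targets gave 1 gene higher and 0 lower of 11 tested in TBX3iso1 cells, 9.09% called beside 21.5% of all genes. The median of these targets was −0.045, beside −0.051 over all genes. In TBX3iso2 cells 2 were higher and 5 lower, 63.6% called beside 21.2%, with a median of −0.39 beside −0.00. The ID genes, classical BMP targets, are members and so do not count in this list. Among them ID3 was called higher with each isoform, ID2 with TBX3iso1 only and ID1 with neither, and ID4 was not tested. TBX3, the transfected gene, is in this list and counts in these shares and medians. It is 1 of the 2 called higher with TBX3iso2, and with TBX3iso1 its 0.54 was under 1.5-fold. Its rise was built into the design and says nothing about the other targets. GATA3, a luminal transcription factor, read 4.59 and 4.49 RPKM with EV, 4.41 and 4.29 with TBX3iso1, and 2.03 and 2.18 with TBX3iso2. It fell by 1.07 with TBX3iso2 (limma adjusted p = 0.000155) and was not called with TBX3iso1 (−0.06, adjusted p = 0.644), and the difference between isoforms was −1.01 (adjusted p = 0.000998). The homeobox gene DLX3 fell by 1.01 with TBX3iso2 (−0.40, under 1.5-fold, with 1 RPKM added). HEY1 (−0.83), RUNX2 (−0.71) and DLX5 (−0.78) were the other 3, named to complete the count. HEY1 lost its call with 1 RPKM added (−0.53) and without moderation (adjusted p = 0.0511). DLX5 lost its call without either EV library or TBX3iso2 replicate 2 (adjusted p from 0.127 to 0.144), with 1 RPKM added (−0.31), with no filter (0.0949), with quantile normalization (0.069) and without moderation (0.159). KLF10, also induced by TGF-β, rose by 0.82 and 0.91, the former with adjusted p = 0.0555 without moderation.

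Of 3 further ligands tested, GDF15, a stress-induced cytokine, and INHA, the inhibin α subunit, fell. With each isoform the calls were 66.7% of these ligands, 20% of further receptors and 16.7% of further antagonists. Over all genes they were 21.5% with TBX3iso1 and 21.2% with TBX3iso2. GDF15 read 72.6 and 84.0 RPKM with EV, 2.57 and 2.96 with TBX3iso1, and 3.08 and 4.06 with TBX3iso2, a fall of 4.77 and 4.43 on the log2 scale (limma adjusted p = 2.24e-06 and 3.04e-06). INHA fell by 1.28 and 1.61 from 1.61 and 1.78 RPKM with EV, the former with adjusted p = 0.0559 without moderation. CD109, a co-receptor that dampens TGF-β signals, was the 1 further receptor called of 5 (−0.65 and −0.88), the former lost with median-ratio scaling (−0.57), without EV replicate 1 (adjusted p = 0.0542) and without TBX3iso1 replicate 2 (−0.52), and both lost without moderation (0.0969 and 0.058). FSTL3, a follistatin-like activin trap, was the 1 antagonist called of 6, rising from 14.3 and 13.1 RPKM with EV to 34.9 and 35.1 with TBX3iso1 and 23.9 and 27.8 with TBX3iso2 (1.35 and 0.91, adjusted p = 4.42e-05 and 0.000251).

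Of 23 SMAD partners tested, 1 was higher and 2 lower in TBX3iso1 cells, and 0 were higher and 3 lower in TBX3iso2 cells, 13.04% called in each beside 21.5% and 21.2% of all genes. TOB1, an anti-proliferative SMAD co-repressor, fell by 0.91 and 0.74. TGIF1, a homeobox co-repressor, fell by 0.65 and 0.63, with both calls lost without EV replicate 2 (−0.58 and −0.55, under 1.5-fold), the first with either scaling (−0.57) and the second with 1 RPKM added (−0.57). STRAP, which recruits SMAD7 to receptors, rose by 0.63 with TBX3iso1 (0.50, under 1.5-fold, with quantile normalization). The co-activator CREBBP fell by 0.62 with TBX3iso2 (limma adjusted p = 0.0419), a call lost under most alternatives. The adjusted p was 0.165 without EV replicate 1, 0.146 without EV replicate 2, 0.135 with no filter, 0.0662 with no trend and 0.228 without moderation, and the change was −0.30 without TBX3iso2 replicate 2 and under 1.5-fold with 1 RPKM added (−0.55), median-ratio scaling (−0.58) and quantile normalization (−0.57). With TBX3iso1 it was called only without TBX3iso1 replicate 1 (−0.72).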

How the data were processed

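RNA-Seq was compared in 6 libraries, 2 each of 21NT + EV, 21NT + TBX3iso1 and 21NT + TBX3iso2. The authors prepared stranded mRNA libraries, sequenced them paired-end on an Illumina HiSeq, aligned them against hg19 by TopHat on a Galaxy server and derived RPKM with Partek Genomics Suite, and the deposited values are that RPKM per gene with the number of alignments per library. Tool versions, the annotation and the use of strand in counting are not given in the sources used here, so genes overlapped on the other strand (among them TGFB1, TGFB2, TGFB3, LTBP3, ACVR2A, INHBA, SMURF1, SMURF2, PMEPA1 and ID2) may share reads. Read counts were not used here.

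All genes averaging at least 0.5 RPKM over the 6 libraries (12805 of 20824) were fitted with limma 3.58.1 in R 4.3.3 on log2(RPKM + 0.1), which understates changes of low genes, with 1 mean per line and a variance trend. Benjamini-Hochberg adjustment ran over all 12805. A gene was called at adjusted p under 0.05 and over 1.5-fold. The script was tested on simulated data. Results were recomputed with 1 or 0.01 RPKM added, with no filter or one at 2 RPKM, 2 scalings, only the lines compared, a replicate block, no trend, no moderation and leaving out each library.

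The members and lists were chosen with earlier results of these data known. Members called in any comparison are named with all values, and of each further list up to 4 called genes with the largest change, with others added after their values were seen where a small count called for their names. In the list of TGF-β targets 1 gene is not reported here. Coordinates are of GRCh37 (GENCODE), promoters of RefSeq GRCh38.p14.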

Additional observations from a re-analysis of the deposited data

Results flagged for a closer look

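BMP1, the procollagen protease, stood out because both TBX3iso1 libraries (7.24 and 6.25 RPKM) lay above both EV libraries (5.72 and 5.42 RPKM) and both TBX3iso2 libraries (4.27 and 4.17 RPKM) below them. No other of the 36 tested members has that pattern. How many of all genes show it was not counted. Of all genes, 34.3% lay wholly above EV with TBX3iso1 and 37.2% wholly below EV with TBX3iso2. For BMP1 the difference between the isoforms was tested and came to −0.66 on the log2 scale (limma adjusted p = 0.0062, 2 libraries per line), while neither isoform was called against EV. It is the same difference that singled BMP1 out, so the test is no independent support, and the call was lost with 1 RPKM added (−0.57), without moderation (adjusted p = 0.0733) and without TBX3iso1 replicate 1 (−0.56).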

How the results depend on the processing

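Of 35 calls of members over the 3 comparisons, 23 were kept under all 16 alternatives, 12 were lost under at least 1 and 8 when 1 library was left out, with 0 changes of sign. Losses numbered 8 with 1 RPKM added, 10 without moderation, 4 without a filter, 2 without a trend and 1 with quantile normalization. For these 12 the cause was not tested. The median of members with TBX3iso1 was 0.24 with median-ratio scaling, beside 0.03 over all genes, and 0.28 with quantile normalization, beside 0.02. In the main fit it was 0.16 beside −0.05, and 0.14 to 0.23 leaving out 1 library. With TBX3iso2 the members' median was 0.0526 with no filter (0.049 to 0.23 leaving out 1 library). The 5 members lower with TBX3iso2 than with TBX3iso1 became 3 with 1 RPKM added, with no filter and with only the 2 lines compared, 1 without moderation, and 2 to 5 leaving out 1 library, where a lone library is assumed to vary like the others. Leaving out 1 library, the other counts ranged from 10 to 11 higher and 3 to 6 lower with TBX3iso1, with 8 higher each time and 4 to 7 lower with TBX3iso2. Over all alternatives they were 9 to 12 and 3 to 6, and 6 to 9 and 4 to 7.

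With the replicate number as a block, 11 members were higher and 4 lower with TBX3iso1, 8 and 6 with TBX3iso2, and 1 and 5 between isoforms, with 0 calls lost or gained. The labels do not say that a number marks a shared batch. Deviations of same-numbered libraries correlated at 0.22, 0.114 and 0.499 for the 3 pairs of lines.

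Over all genes, the share of calls that were higher with TBX3iso1 was 34.6%, or 46.6% with median-ratio scaling and 49.0% with quantile normalization; between the isoforms it was 55.2%, 44.4% and 44.7%. The members' share with TBX3iso1 was 73.3%, 75.0% and 70.6%. Of 47 calls of the further genes named, run after their values were seen, 22 were lost under at least 1 alternative and 12 when 1 library was left out, with 0 reversed.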

Other observations

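Some ratios within a library, which do not depend on its scaling, also differed between lines. The ratio of BMP4 to its trap NOG was 3.90 and 4.83 with EV, 2.11 and 1.79 with TBX3iso1, and 2.63 and 2.19 with TBX3iso2. INHBA to INHBB stood at 1.70 and 1.79 with EV, 3.04 and 2.56 with TBX3iso1, and 0.797 and 0.369 with TBX3iso2, so the TBX3iso1 libraries were above EV and the TBX3iso2 libraries below it. ID1 to ID3 was 5.19 and 5.58 with EV, 2.96 and 2.86 with TBX3iso1, and 2.13 and 2.35 with TBX3iso2. No test was run on these ratios, chosen after the values were seen.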
